A study of Mus musculus with 5 samples.

Results

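The gene set described here is 10 genes of matrix proteases and their inhibitors, chosen by name from the genes in the deposited table. It holds the secreted metalloproteinases Mmp8, Mmp9, Mmp12 and Mmp13, the membrane-anchored Mmp14, the inhibitors Timp1 and Timp2, the aggrecanase Adamts4 and the membrane proteases Adam8 and Adam17. All 10 were among the 13339 genes listed, and all 10 were among the 9795 genes whose mean over the libraries was at least 1 FPKM (a read count divided by transcript length and by the size of the library), the level required for counting. Adamts4 reached that mean through the 4 h library alone. Measured values did not enter the choice by rule, but earlier results of these data were known when the set was drawn up.

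The samples were bone marrow-derived macrophages, phagocytes grown from the marrow of 8-week-old C57BL/6 mice over 5 days with the growth factor M-CSF, and wild type by their titles. Transcripts were read by RNA sequencing after 4, 8, 12 and 24 h of lipopolysaccharide (LPS, the cell wall component of Gram-negative bacteria that TLR4 senses) at 100 ng/ml, and at 0 h. Each time was 1 library, so no test was possible, and every difference below is between single libraries whose spread is unknown. Untreated cells cultured for the same hours were not analysed here, so hours of culture and hours of LPS cannot be told apart.

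Matrix metalloproteinases are zinc proteases made as inactive zymogens. Between them they cut collagens, elastin, proteoglycans and many cytokines, and TIMP proteins block the active site. ADAM proteases sit in the cell membrane and release the outer parts of other membrane proteins, among them TNF. ADAMTS proteases are secreted, and some of them cut proteoglycans. In inflamed tissue macrophages are a known source of several of these enzymes, but a transcript level says nothing of activation, secretion or inhibition of the protein.

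Estimated depth was close in the 5 libraries, at 18.8 to 19.2 M reads. The median of all genes over the filter nonetheless lay below its 0 h level in the LPS libraries, by a log2 difference of -0.70, -0.49, -0.35 and -0.11 at 4, 8, 12 and 24 h, so each gene's difference is to be read against these medians. All 8 macrophage markers were above 1 FPKM in every library, with summed levels of 2731 to 3295 FPKM. Summed markers of stroma and osteoblasts came to 6.29 to 14.4 FPKM over 9 genes, with Lum at 0 at 4 h, and those of dendritic cells to 15.1 to 46.4 FPKM over 7 genes, none at 0. Osteoclast markers summed to 104 to 342 FPKM over 6 genes, none at 0, most of it at 0 h from Atp6v0d2. Atp6v0d2 was lower at 24 h (6.20 FPKM against 286 FPKM at 0 h), Acp5 was higher (58.1 FPKM against 16.8 FPKM at 0 h), and the other 2 over the filter were within 2-fold. A protocol field speaks of dendritic cells where the other labels name macrophages. These are bulk libraries, in which fewer cells of a type and less RNA per cell cannot be told apart.

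At 4 h, 3 of the 10 genes (Mmp13, Adamts4 and Mmp14) exceeded their 0 h level at least 2-fold on the log2(FPKM + 1) scale, and 2 (Timp2 and Mmp8) were at least 2-fold lower. Among all genes over the filter, 12.2% were that much higher and 38.1% that much lower. At 8 h 3 of the 10 were higher (Mmp13, Mmp14 and Timp1), where 12% of all genes were, and 3 were lower (Timp2, Adam8 and Mmp8), where 28.9% of all genes were. At 12 h the 3 higher genes were those of 8 h, beside 12.3% of all genes, and the 3 lower were Timp2, Mmp12 and Mmp8, beside 21.5%. At 24 h 4 were higher (Mmp13, Mmp14, Timp1 and Adam8), beside 11.3%, and 2 were lower (Timp2 and Mmp12), beside 14.5%. The median difference of the 10 genes was 0.08, 0.19, -0.05 and 0.32 at 4, 8, 12 and 24 h.

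Centring each library on its median gene changed these counts for the early times. At 4 h 4 were then higher and 0 lower, beside 19.4% and 16.3% of all genes. At 8 h 5 were higher and 2 lower, beside 17.7% and 15.5%. At 12 h 4 were higher and 1 lower, beside 15.7% and 13.8%. Of all genes at least 2-fold apart at 4 h, the share that was higher was 54.4% with centring and 24.3% without. At 8 h this share was 53.3% with centring and 29.4% without, and at 12 h it was 53.3% with centring and 36.4% without. Of the 23 calls of the 10 genes against 0 h, 18 held in all 5 alternative scalings and pseudocounts, and the 5 that did not were Mmp8 at 4, 8 and 12 h, Timp2 at 4 h and Mmp12 at 12 h.

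**Figure D1:**
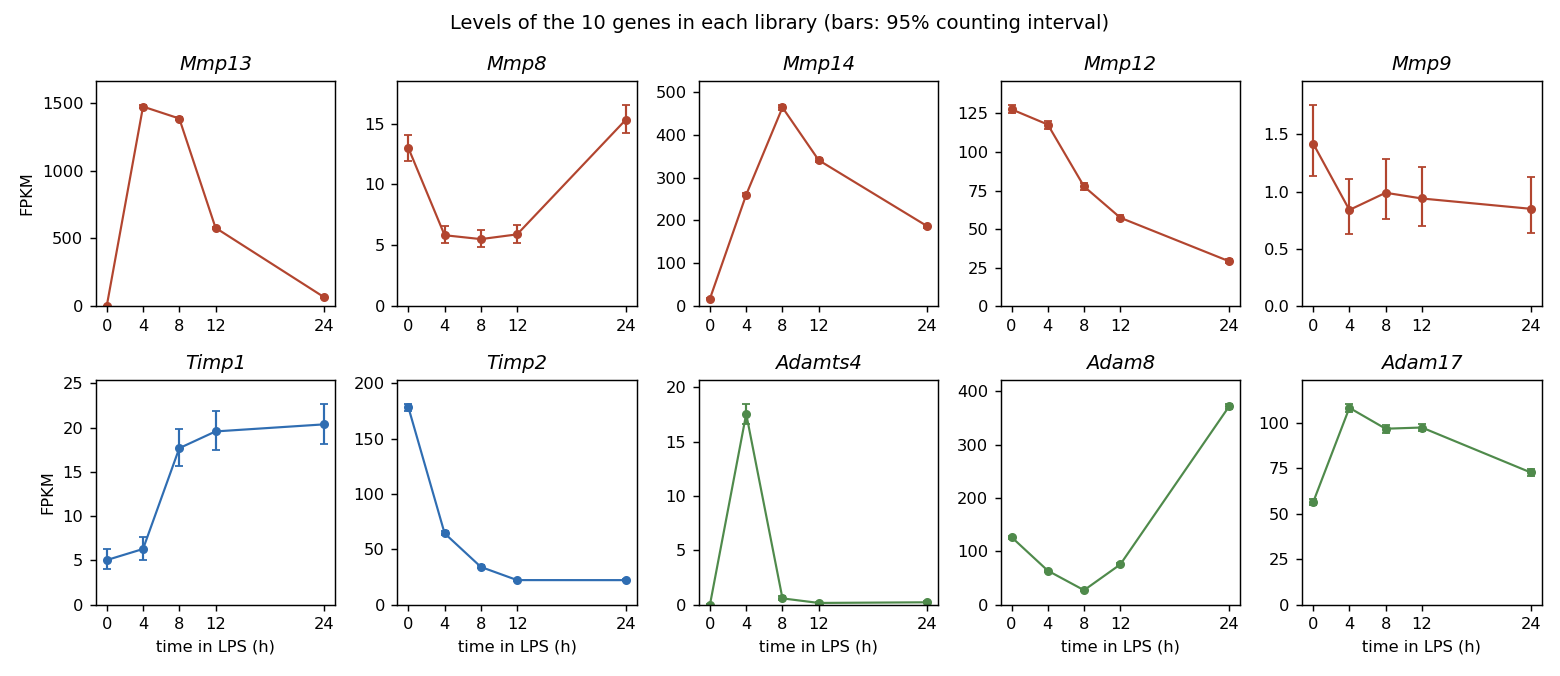
Level of each of the 10 genes (y axes, FPKM, each panel with its own linear scale from 0) at 0, 4, 8, 12 and 24 h of LPS (x axes, hours), 1 library per point, with 95% counting intervals as bars. Mmp13 and Adamts4 peak at 4 h, Mmp14 at 8 h and Adam8 at 24 h, while Timp2 and Mmp12 are at their highest at 0 h.

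Mmp13 (gene identifier 17386) encodes collagenase-3, the main interstitial collagenase of rodents, which cuts fibrillar collagen. Its level was 3.08 FPKM at 0 h, 1473 FPKM at 4 h, 1385 FPKM at 8 h, 578 FPKM at 12 h and 65.1 FPKM at 24 h. The 4 LPS libraries were thus all far above the 0 h library, with the highest levels in the first pair. The 4 h level was 478 times the 0 h level (95% counting interval 408 to 563, which covers counting error only), a log2 difference of 8.50 that exceeded those of 99.9% of all genes. Later differences from 0 h were 8.41, 7.15 and 4.02 at 8, 12 and 24 h. At 24 h Mmp13 was 22.6-fold lower than at 4 h but still 21.2-fold higher than at 0 h. On the log2 scale most of that decline fell between 12 and 24 h, which is also the longest interval. In FPKM most of it fell earlier, from 1385 FPKM at 8 h to 578 FPKM at 12 h. The log2 difference was -1.26 at 12 h against 8 h and -3.13 at 24 h against 12 h.

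Mmp14 (17387, chr14:54431598-54442456) encodes MT1-MMP, a collagenase held in the plasma membrane that also activates the zymogens of MMP13 and, together with TIMP2, of MMP2. It stood at 17.55 FPKM at 0 h, 260.2 FPKM at 4 h, 464 FPKM at 8 h, 341 FPKM at 12 h and 186 FPKM at 24 h. Every LPS library exceeded the 0 h library by at least 10.6-fold, and the peak came at 8 h, later than that of Mmp13. Log2 differences from 0 h were 3.82, 4.65, 4.20 and 3.34 at 4, 8, 12 and 24 h. At 24 h Mmp14 was within 2-fold of its 4 h level (log2 difference -0.48), but lower by 1.01 when libraries were centred on the median gene. Mmp2 itself, named after its values were seen, stayed between 0.66 and 1.29 FPKM.

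The promoters of Mmp13, Mmp14 and Mmp12 are shown because these 3 genes made up most of the metalloproteinase transcripts, with 3 different time courses. Each window runs from 250 bases before to 50 bases after the annotated start, 5′ to 3′ on the gene's strand, from RefSeq on build GRCm38.p6. The Mmp13 window is chr9:7272264-7272563, the Mmp14 window chr14:54431348-54431647 and the Mmp12 window chr9:7347124-7347423, all on the plus strand. Capitals mark matches to the motifs searched.
Mmp13: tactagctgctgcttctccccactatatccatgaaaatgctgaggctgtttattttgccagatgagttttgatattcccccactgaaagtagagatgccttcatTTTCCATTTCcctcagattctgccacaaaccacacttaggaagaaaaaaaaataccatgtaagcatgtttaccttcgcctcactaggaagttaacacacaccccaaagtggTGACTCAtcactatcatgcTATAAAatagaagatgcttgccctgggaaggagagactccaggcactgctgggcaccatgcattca
Mmp14: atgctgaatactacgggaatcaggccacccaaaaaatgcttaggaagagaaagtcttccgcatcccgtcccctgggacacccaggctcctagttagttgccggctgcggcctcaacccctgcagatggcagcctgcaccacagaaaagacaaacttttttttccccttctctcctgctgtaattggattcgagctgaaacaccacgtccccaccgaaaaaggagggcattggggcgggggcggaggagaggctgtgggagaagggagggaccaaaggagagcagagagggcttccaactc
Mmp12: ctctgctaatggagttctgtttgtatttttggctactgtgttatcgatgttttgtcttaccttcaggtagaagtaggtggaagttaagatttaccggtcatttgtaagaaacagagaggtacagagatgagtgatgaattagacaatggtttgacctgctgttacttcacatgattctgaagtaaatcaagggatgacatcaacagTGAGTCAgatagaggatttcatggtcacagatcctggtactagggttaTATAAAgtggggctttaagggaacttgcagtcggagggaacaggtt

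The windows were searched on both strands for the AP-1 motif TGANTCA, the TATA box TATAAA, the ETS core GAGGAA, the kappaB site and the ISRE (the interferon-stimulated response element). In the Mmp13 window the AP-1 letters TGACTCA began 35 bases before the start, the TATA box 16 bases before it and an ISRE match 146 bases before it. The Mmp12 window shown held the AP-1 letters TGAGTCA 44 bases before the start and a TATA box beginning at base 5 after it. A second annotated Mmp12 window, chr9:7344147-7344446, held a kappaB match and an ETS core instead. Mmp8 had a TATA box and an ETS core, and the windows of Mmp14, Timp1, Timp2, Adam8 and Adam17 had no match to any of the 5 motifs. Of all 32851 windows of this length, 7.81% held the AP-1 motif, 13.6% the TATA box, 28.3% the ETS core, 8.46% the kappaB site and 3.44% the ISRE. The table had windows for 8 of the 10 genes, not for Mmp9 and Adamts4. A match describes the letters and nothing more.

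Mmp8 (17394) encodes collagenase-2, stored in neutrophil granules and also made by macrophages. It measured 13.0 FPKM at 0 h, 5.83 FPKM at 4 h, 5.51 FPKM at 8 h, 5.90 FPKM at 12 h and 15.3 FPKM at 24 h. The 3 middle libraries were alike within counting error and about as low as each other, and the 24 h library was slightly above the 0 h library, at 1.18 times its level (counting interval 1.06 to 1.32). Log2 differences from 0 h were -1.04, -1.10 and -1.02 at 4, 8 and 12 h, just past 2-fold. They became -0.45, -0.64 and -0.72 with libraries centred on the median gene, short of 2-fold, so these calls rest on the scaling. Against 12 h the 24 h level was 2.60-fold higher (log2 difference 1.24, or 0.99 with centring).

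Mmp9 (17395, chr2:164940326-164955850) encodes gelatinase B, which cuts denatured collagen and is likewise a neutrophil granule enzyme. It was at 1.42 FPKM at 0 h, 0.84 FPKM at 4 h, 0.99 FPKM at 8 h, 0.94 FPKM at 12 h and 0.85 FPKM at 24 h, or 85, 50, 60, 55 and 51 estimated reads. All 5 libraries were low, and the 4 LPS libraries did not differ among themselves beyond counting error. No difference from 0 h reached 2-fold, with log2 values of -0.40 to -0.28, and at 4 h the sign turned with centring, to 0.19.

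Because MMP8 and MMP9 are neutrophil granule proteins, the 13 neutrophil markers are given beside them. Of the 12 listed, the summed level was 401 FPKM at 0 h, 593 FPKM at 4 h, 1627 FPKM at 8 h, 2144 FPKM at 12 h and 1773 FPKM at 24 h, and from 8 h on most of it was Lcn2, which LPS-treated macrophages also express. Of the 10 over the filter, 2 exceeded their 0 h level by 2-fold or more at 24 h, beside 11.3% of all genes. They were Lcn2 and the surface marker Ly6g (3.71 FPKM at 24 h against 0.12 FPKM at 0 h). Another 6 were lower, beside 14.5%. The receptor gene Csf3r was highest at 8 h, at 187 FPKM against 38.1 FPKM at 0 h. Among granule genes, Ngp was at 0.28 FPKM at 24 h against 35.1 FPKM at 0 h, Ltf at 0.16 FPKM at 24 h against 11.45 FPKM at 0 h, and Mpo and Prtn3 were at 0 at 24 h. Mmp8 was at its highest in the library where these 4 granule genes were lowest and Ly6g was highest. At 0 h, 4 h, 8 h and 12 h none of the 12 was at 0, and their part in the Mmp8 and Mmp9 levels there was not tested.

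Mmp12 (17381) encodes macrophage elastase, which cuts elastin and is named for the cell that makes it. Its levels were 128 FPKM at 0 h, 118 FPKM at 4 h, 77.6 FPKM at 8 h, 57.4 FPKM at 12 h and 29.1 FPKM at 24 h. Each library was lower than the one before it, in contrast to Mmp13 and Mmp14. The log2 difference from 0 h was -0.12 at 4 h, or 0.47 with libraries centred on the median gene, so no direction holds for that time. It was -0.71 at 8 h, -1.14 at 12 h (short of 2-fold with centring, at -0.84) and then -2.09 at 24 h, when Mmp12 was 4.38-fold lower than at 0 h. This last difference ranged from -2.13 to -1.96 over the alternatives.

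**Figure D2:**
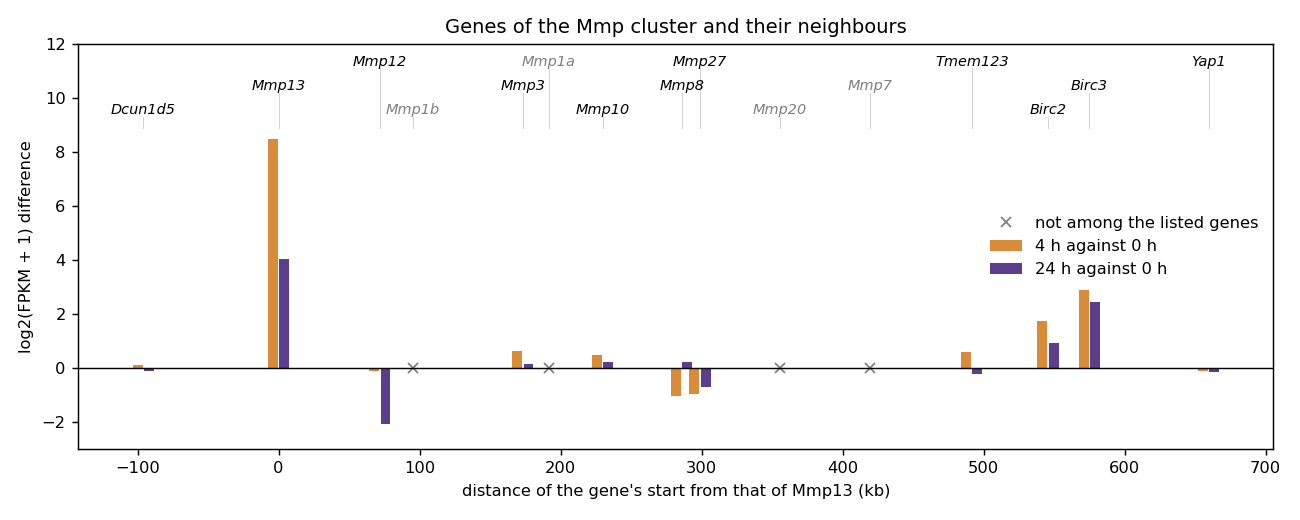
Log2(FPKM + 1) difference from 0 h (y axis) of genes in and beside the chromosome 9 Mmp cluster, placed by the distance of their start from that of Mmp13 (x axis, kb). Bars are 4 h and 24 h, 1 library per time, and crosses are genes that the table does not list. Mmp13 stands at 8.50 at 4 h, while Mmp12 beside it stands at -0.12 and Mmp8 at -1.04.

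Mmp13, Mmp12 and Mmp8 lie in 1 cluster of 10 Mmp genes that spans 427 kb of chromosome 9 on GRCm38. Mmp13 occupies chr9:7272514-7283333, Mmp12 chr9:7344397-7360461 and Mmp8 chr9:7558429-7568486. The end of Mmp13 and the start of Mmp12 are 61.1 kb apart, yet at 4 h their log2 differences from 0 h were 8.50 and -0.12. Of the 10 cluster genes 6 were in the table, and the stromelysin genes Mmp3 and Mmp10 did not exceed 0.66 FPKM in any library. Mmp27, next to Mmp8, was at 6.85 FPKM at 0 h, 2.96 FPKM at 4 h, 2.33 FPKM at 8 h, 2.02 FPKM at 12 h and 3.74 FPKM at 24 h. The first gene past the distal end of the cluster, Tmem123, differed by 0.58 at 4 h on the log2 scale, with 56.3 FPKM at 4 h and 37.25 FPKM at 0 h. Beyond it lay the apoptosis inhibitor genes Birc2 and Birc3. Birc2 was 1.75 higher at 4 h, with 21.1 FPKM at 4 h and 5.58 FPKM at 0 h. Birc3 was 2.88 higher, with 114 FPKM at 4 h and 14.6 FPKM at 0 h. On the other side Dcun1d5 differed by 0.09 at 4 h, with 32.7 FPKM at 4 h and 30.7 FPKM at 0 h.

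Timp2 (21858, chr11:118301061-118355411) encodes an inhibitor that binds MMP14 tightly and was the most abundant of the 10 transcripts before LPS. Its levels were 178 FPKM at 0 h, 64.5 FPKM at 4 h, 34.15 FPKM at 8 h, 22.3 FPKM at 12 h and 22.25 FPKM at 24 h. All 4 LPS libraries were below the 0 h library, and the last pair did not differ from each other beyond counting error. Log2 differences from 0 h were -1.45, -2.35, -2.94 and -2.95 at 4, 8, 12 and 24 h, an 8.01-fold lower level at 24 h. The call at 4 h was lost with centring, where the difference was -0.87. Those at 8, 12 and 24 h stayed past 2-fold in every alternative.

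Timp1 (21857, chrX:20870166-20874737) encodes the inhibitor that also binds the zymogen of MMP9. It measured 5.05 FPKM at 0 h, 6.30 FPKM at 4 h, 17.7 FPKM at 8 h, 19.6 FPKM at 12 h and 20.4 FPKM at 24 h. The first pair of libraries overlapped within counting error, and the last 3 lay above both and close together. At 24 h Timp1 was 4.03-fold higher than at 0 h (counting interval 3.16 to 5.23), with log2 differences of 0.27, 1.63, 1.77 and 1.82 at 4, 8, 12 and 24 h. Its transcript is short, at 883 nt, and with the trend of differences on transcript length removed the value was 1.61 at 4 h and 2.73 at 24 h. Timp1 and Timp2 thus lay on opposite sides of their 0 h levels from 8 h on. At 24 h their counting intervals overlapped, at 22.25 FPKM for Timp2 and 20.4 FPKM for Timp1.

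Set against each other as summed FPKM, which are per length, the 5 metalloproteinases stood at 163 FPKM at 0 h, 1858 FPKM at 4 h, 1933 FPKM at 8 h, 983 FPKM at 12 h and 297 FPKM at 24 h. The Timp1 and Timp2 sum was 183 FPKM at 0 h, 70.8 FPKM at 4 h, 51.8 FPKM at 8 h, 41.9 FPKM at 12 h and 42.6 FPKM at 24 h. The ratio of protease to inhibitor transcripts was 0.888, 26.3, 37.3, 23.5 and 6.96 at 0, 4, 8, 12 and 24 h. Its peak at 8 h combined a protease sum close to that of 4 h with a lower inhibitor sum. Without Mmp13 the ratio was 5.44, 10.6 and 5.43 at 4, 8 and 24 h, still above the 0 h value.

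The leading protease also changed. Mmp12 made up 78.5% of the protease sum at 0 h. Mmp13 made up 79.3%, 71.7% and 58.8% at 4, 8 and 12 h, and Mmp14 made up 62.8% at 24 h. Timp2 was 97.2%, 91.1%, 65.9%, 53.2% and 52.2% of the inhibitor sum at 0, 4, 8, 12 and 24 h. These are shares of transcripts, not of protein or of active enzyme.

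**Figure D3:**
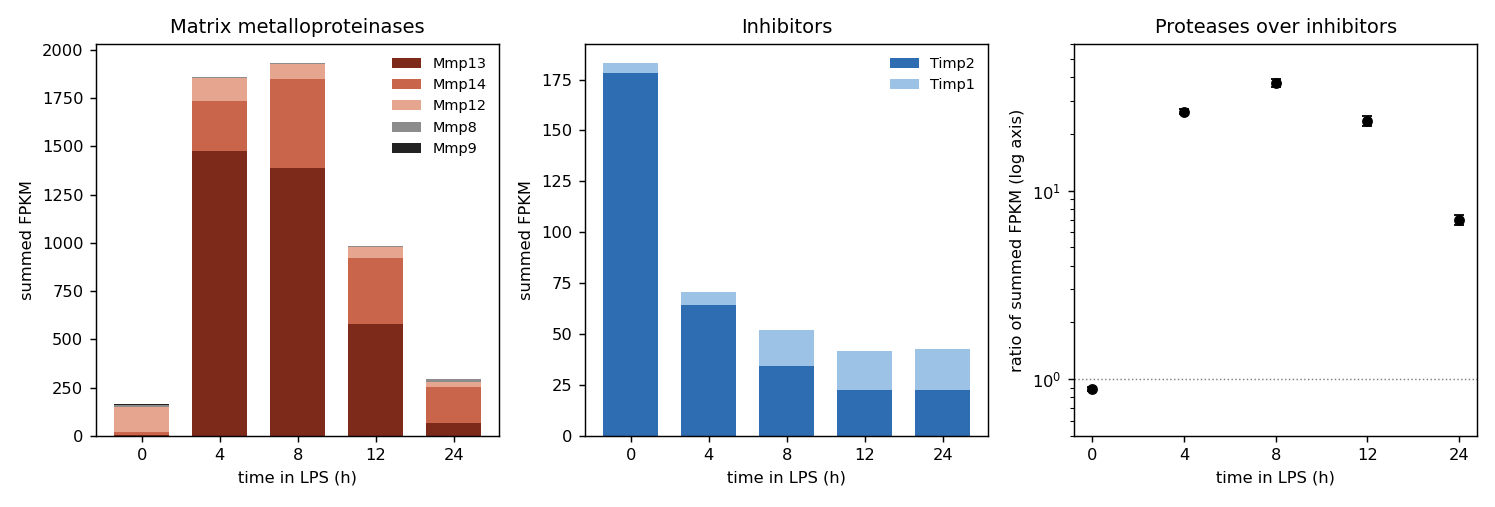
Left and middle, stacked bars of the FPKM of the 5 metalloproteinases and of the 2 inhibitors by hours of LPS on linear axes, 1 library per bar. Right, the ratio of summed protease to summed inhibitor FPKM on a log axis with 95% counting intervals, which is 0.888 at 0 h, reaches 37.3 at 8 h and is 6.96 at 24 h.

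Adamts4 (240913, chr1:171250129-171262267) encodes aggrecanase-1, which cuts the proteoglycans aggrecan and versican. Its levels were 0.01 FPKM at 0 h (about 1 read), 17.6 FPKM at 4 h, 0.59 FPKM at 8 h, 0.17 FPKM at 12 h and 0.23 FPKM at 24 h. Only the 4 h library was above 1 FPKM, with an estimated 1444 reads. The 4 h level was 1757 times the 0 h level, with a counting interval of 262 to 57678 because the 0 h value rests on a single read, and the log2(FPKM + 1) difference was 4.20. At 8 h Adamts4 was 29.8-fold lower than at 4 h, the steepest step of the 10 genes between adjacent times after 4 h. Its difference of 0.65 at 8 h against 0 h depends on the pseudocount, since it was 2.65 with a pseudocount of 0.1.

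Versican, a substrate of this enzyme, is encoded by Vcan, which was at 0.17 FPKM at 0 h, 30.1 FPKM at 4 h, 27.9 FPKM at 8 h, 17.1 FPKM at 12 h and 1.98 FPKM at 24 h. Vcan and Adamts4 were both near 0 at 0 h and highest at 4 h, but Vcan stayed high at 8 h and 12 h where Adamts4 did not. The list of other Adamts and Adamts-like genes had 3 over the filter, with median log2 differences of -1.76 at 4 h and -1.53 at 24 h. Of all genes over the filter, 12.2% were higher and 38.1% lower at 4 h, and 11.3% and 14.5% at 24 h. Of the 3 genes of this list, 0 were higher and 2 lower at both times. The Adamts-like gene Adamtsl5 was within 2-fold, with log2 differences of -0.98 at 4 h and -0.49 at 24 h. The 2 lower genes were Adamts10, at 0.89 FPKM at 4 h against 7.83 FPKM at 0 h, and Adamts13, the protease of von Willebrand factor, at 1.30 FPKM at 4 h against 6.81 FPKM at 0 h.

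Adam8 (11501, chr7:139978932-139995207) encodes a leukocyte membrane protease with shedding activity. It measured 127 FPKM at 0 h, 63.9 FPKM at 4 h, 27.3 FPKM at 8 h, 75.65 FPKM at 12 h and 372 FPKM at 24 h. The highest library was that of 24 h, as for Mmp8, whose 4, 8 and 12 h levels were alike within counting error. The lowest library of Adam8 was that of 8 h. Log2 differences from 0 h were -0.98, -2.17, -0.74 and 1.54 at 4, 8, 12 and 24 h, and the calls at 8 h and 24 h held under every alternative. From 8 h on it was higher in each later library, with a log2 difference of 1.44 at 12 h against 8 h and of 2.28 at 24 h against 12 h. The last of these exceeded the differences of 99.9% of all genes. At 24 h Adam8 led the 10 genes and held 47.4% of their summed FPKM.

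Adam17 (11491, chr12:21323509-21373632) encodes TACE, the protease that releases TNF and many other membrane proteins. Its levels were 56.3 FPKM at 0 h, 108 FPKM at 4 h, 96.7 FPKM at 8 h, 97.4 FPKM at 12 h and 72.7 FPKM at 24 h. All LPS libraries were above the 0 h library, but none by 2-fold, with log2 differences of 0.93, 0.77, 0.78 and 0.36. With libraries centred on the median gene the first 3 became 1.51, 1.23 and 1.08, past 2-fold. Of the 10 genes Adam17 had the second-narrowest range of levels after Mmp9.

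Between later times, 3 of the 10 genes were higher at 24 h than at 4 h (Adam8, Timp1 and Mmp8), where 25% of all genes were, and 4 were lower (Mmp13, Adamts4, Mmp12 and Timp2), where 8.19% of all genes were. At 8 h against 4 h, 1 was higher (Timp1; 5.23% of all genes) and 2 were lower (Adamts4 and Adam8; 3.88%). At 12 h against 8 h, 1 was higher (Adam8; 2.58%) and 1 lower (Mmp13; 0.939%). At 24 h against 12 h, 2 were higher (Adam8 and Mmp8; 3.42%) and 1 lower (Mmp13; 3.5%). With centring, the share of higher genes among all those at least 2-fold apart was 35.8% at 24 h against 4 h, or 75.3% without it. For 24 h against 12 h it was 18.6% with centring and 49.4% without, for 12 h against 8 h 47.6% and 73.3%, and for 8 h against 4 h 42.9% and 57.4%.

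**Figure D4:**
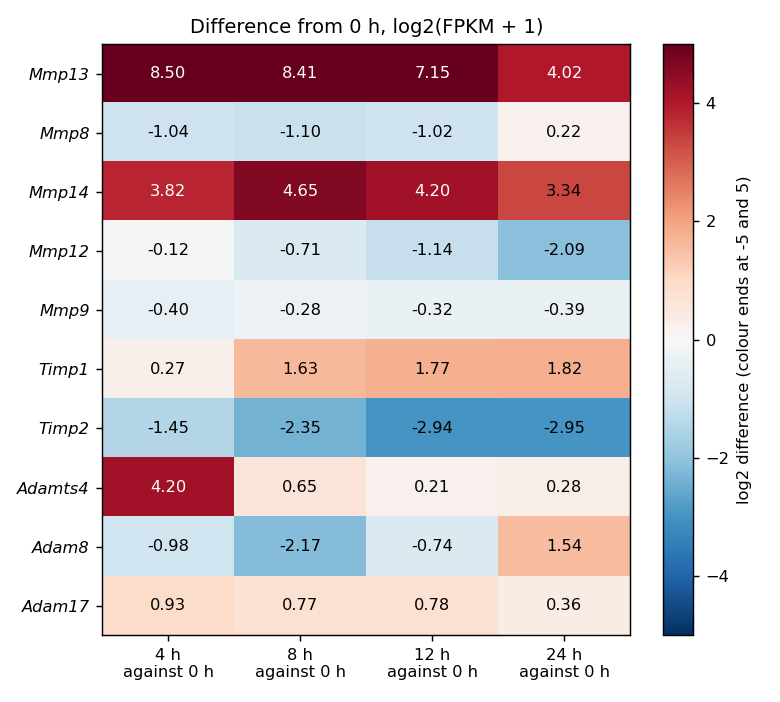
Log2(FPKM + 1) difference from the 0 h library (colour and printed value) of the 10 genes (rows) at 4, 8, 12 and 24 h (columns), from 1 library per time. Mmp13 and Mmp14 are higher and Timp2 lower at all 4 times, and Adam8 changes sign, from -2.17 at 8 h to 1.54 at 24 h.

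The order of the levels turned over as well. At 0 h Timp2 led, followed by Mmp12 and Adam8, which did not differ beyond counting error, and then by Adam17, Mmp14, Mmp8, Timp1, Mmp13, Mmp9 and Adamts4. Mmp13 and Mmp14 were first and second at 4, 8 and 12 h, and Mmp13 alone held 69.5% of the summed FPKM of the 10 genes at 4 h. At 4 h Timp2 and Adam8 were level within counting error, and so were Timp1 and Mmp8. At 24 h the order began with Adam8, Mmp14, Adam17 and Mmp13.

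Genes that act on or with these proteases were examined as lists. The counts of this and the following lists are to be read beside the shares of all genes over the filter. At 4 h 12.2% of all genes were higher and 38.1% lower, or 19.4% and 16.3% with centring. At 24 h 11.3% were higher and 14.5% lower. The list of zymogen activators and partners had 7 genes over the filter, of which 5 were higher and 1 was lower at 4 h (median 1.43), and 1 was higher and 1 lower at 24 h (median -0.67). The lower call at 4 h, that of Bsg, was lost with centring and with the length trend removed. The partner of MMP9 in neutrophils, Lcn2, was at 17.6 FPKM at 0 h, 183 FPKM at 4 h, 1183 FPKM at 8 h, 1793 FPKM at 12 h and 1643 FPKM at 24 h. Cd44, a hyaluronan receptor that anchors MMP9 and MMP14 at the cell surface, was at 322 FPKM at 4 h and 46.8 FPKM at 24 h, against 78.65 FPKM at 0 h. Plaur, the urokinase receptor, was at 192 FPKM at 4 h and 32.5 FPKM at 24 h, against 68.1 FPKM at 0 h. Furin, which cuts the propeptides of MMP14 and ADAM17 and was named after its values were seen, was at 104.5 FPKM at 4 h and 23.5 FPKM at 24 h, against 38.1 FPKM at 0 h.

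Regulators of ADAM17 and its relative ADAM10 numbered 6 over the filter, with 1 higher and 2 lower at 4 h and 1 higher and 1 lower at 24 h, at medians of -0.10 and -0.05. Rhbdf2 encodes iRhom2, which carries ADAM17 to the cell surface in macrophages. It was at 13.8 FPKM at 0 h, 115 FPKM at 4 h, 75.2 FPKM at 8 h, 64.8 FPKM at 12 h and 47.85 FPKM at 24 h. Its log2 difference of 2.97 at 4 h was larger than that of Adam17 itself. Tspan14 and Tspan5, tetraspanins that bind ADAM10, were lower at 4 h, with 5.05 FPKM at 4 h against 37.7 FPKM at 0 h for Tspan14. With centring 2 of the 6 were higher and 1 was lower at 4 h.

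Of the 14 ADAM17 substrate genes over the filter, 9 were higher and 2 lower at 4 h, and 6 were higher and 1 lower at 24 h, with medians of 1.50 and 0.68. Tnf was at 9.93 FPKM at 0 h, 2183 FPKM at 4 h, 748 FPKM at 8 h, 379 FPKM at 12 h and 189 FPKM at 24 h. The costimulatory receptor gene Cd40 was at 749.9 FPKM at 4 h against 2.37 FPKM at 0 h. The lower genes at 4 h were Il6ra, the IL-6 receptor, at 1.86 FPKM at 4 h against 12.0 FPKM at 0 h, and Trem2, a lipid receptor, at 307 FPKM at 4 h against 1003 FPKM at 0 h. Trem2 was lower still at 24 h, at 58.8 FPKM, while Il6ra was then at 14.2 FPKM.

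Among other metalloproteinase genes 4 passed the filter, with 1 higher and 2 lower at 4 h (median -1.39) and 1 higher and 1 lower at 24 h (median -0.52). The higher gene was Mmp25, a membrane-anchored protease of leukocytes, with 0.20 FPKM at 0 h, 9.19 FPKM at 4 h, 17.3 FPKM at 8 h, 13.5 FPKM at 12 h and 2.93 FPKM at 24 h, so it peaked at 8 h as Mmp14 did. Mmp19 was at 5.00 FPKM at 4 h against 19.9 FPKM at 0 h, and Mmp24 at 1.48 FPKM at 4 h against 7.58 FPKM at 0 h. The single other inhibitor gene over the filter, Timp3, whose protein blocks ADAM17, was at 3.04 FPKM at 0 h, 6.12 FPKM at 4 h, 3.91 FPKM at 8 h, 3.12 FPKM at 12 h and 1.88 FPKM at 24 h. Neither its log2 difference at 4 h nor that at 24 h reached 2-fold, but with centring the 4 h difference did.

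Of 4 other Adam genes over the filter, 0 were higher and 2 lower at 4 h (Adam15 and Adam33, median -0.98), and 0 were 2-fold apart at 24 h (median -0.34). With centring 1 was higher and 0 were lower at 4 h. Adam9 was just short of 2-fold higher throughout, at 28.1 FPKM at 0 h, 54.9 FPKM at 4 h and 55.2 FPKM at 24 h. Adam15 was at 30.3 FPKM at 4 h and 55.4 FPKM at 24 h, against 77.5 FPKM at 0 h.

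Genes of matrix proteins and surface proteoglycans, which are the substrates of these enzymes, numbered 16 over the filter. Of them 4 were higher and 1 was lower at 4 h, and 5 were higher and 1 was lower at 24 h, with medians of 0.31 and 0.12. With centring 7 were higher and 0 lower at 4 h. Sdc4, a syndecan, was at 31.9 FPKM at 0 h, 793 FPKM at 4 h, 260.4 FPKM at 8 h, 106 FPKM at 12 h and 75.7 FPKM at 24 h. Thrombospondin-1 (Thbs1) peaked later, with 12.3 FPKM at 0 h, 29.2 FPKM at 4 h, 79.9 FPKM at 8 h, 122 FPKM at 12 h and 54.1 FPKM at 24 h. The laminin chain gene Lamc1 was 3.52-fold higher at 24 h, at 12.05 FPKM against 3.42 FPKM at 0 h, and biglycan (Bgn) was lower, at 2.98 FPKM against 7.39 FPKM.

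**Figure D5:**
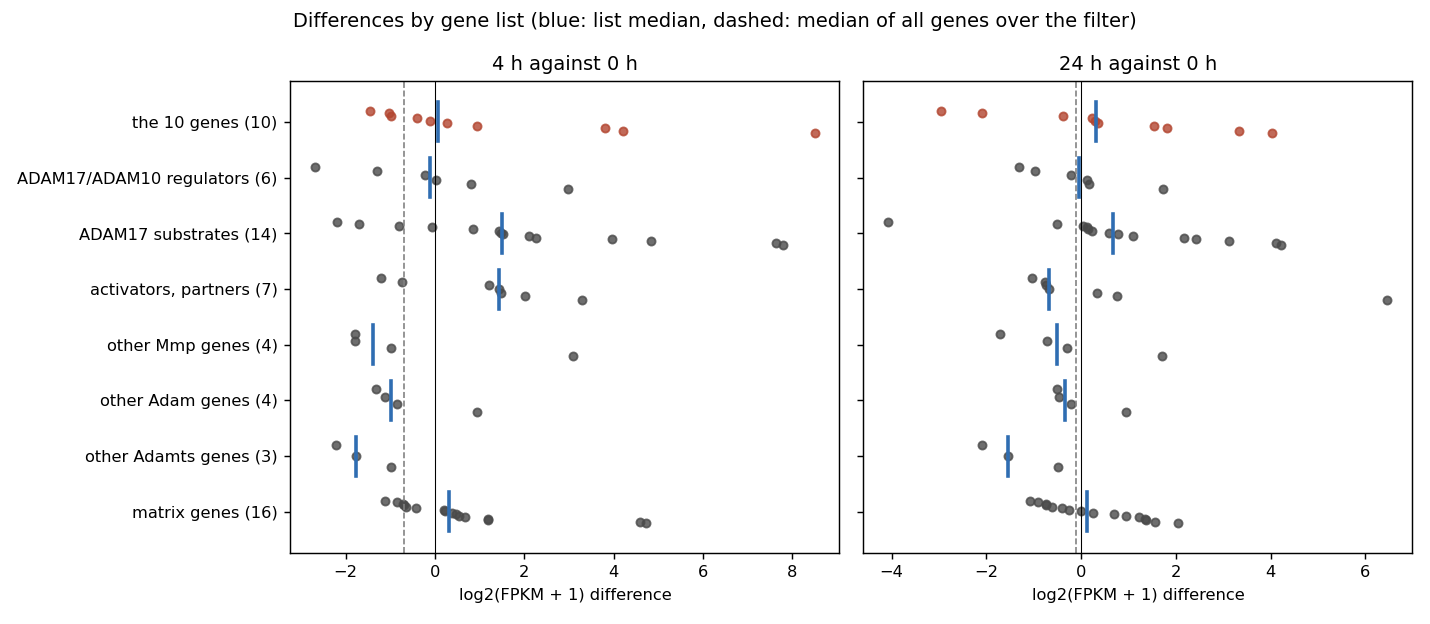
Log2(FPKM + 1) difference at 4 h (left) and 24 h (right) against 0 h for each gene over the filter (points) by list (rows, number of genes in brackets), with list medians in blue and the median of all genes dashed at -0.70 and -0.11. The ADAM17 substrates and the activators and partners have medians of 1.50 and 1.43 at 4 h, and of 0.68 and -0.67 at 24 h.

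The list of AP-1, NF-kappaB and ETS factors, which holds no factors of the ISRE, had 14 genes over the filter, 8 of them higher and 3 lower at 4 h (median 1.47), and 5 higher and 0 lower at 24 h (median 0.53). The NF-kappaB genes Rel and Nfkb2 led the higher ones, with 34.2 FPKM at 4 h against 0.79 FPKM at 0 h for Rel and 326 FPKM at 4 h against 20.3 FPKM at 0 h for Nfkb2. The AP-1 genes Fos and Jun were lower at 4 h, at 4.55 FPKM against 17.0 FPKM at 0 h for Fos and 16.9 FPKM against 46.1 FPKM at 0 h for Jun. Other AP-1 genes, named after their values were seen, were not lower. Junb was at 346 FPKM at 4 h against 58.2 FPKM at 0 h, and Fosl2 at 16.8 FPKM against 5.29 FPKM. Jund was level, at 58.2 FPKM at 4 h against 59.8 FPKM at 0 h. The calls of lower factors depend on the scaling, since 1 of the 14 was lower at 4 h with centring and 0 with the length trend removed. Fos and Jun were back near their 0 h levels at 24 h, at 16.0 FPKM and 46.4 FPKM.

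Genes with the nearest profiles were sought for the 6 of the 10 genes whose range was at least 2 on the log2 scale, among genes with a mean of at least 10 FPKM, by the root mean square gap between the 4 differences from 0 h. The closest match of all was Chil3, a chitinase-like lectin of macrophages, to Mmp12, with a gap of 0.145 and 30.8 FPKM at 0 h, 29.7 FPKM at 4 h, 20.9 FPKM at 8 h, 13.0 FPKM at 12 h and 5.39 FPKM at 24 h. Mmp14 was nearest to Sod2, the mitochondrial superoxide dismutase (gap 0.150), then to Batf and Upp1. Timp2 was nearest to Mgst3 (0.178), then to the Fc receptor gene Fcgrt and to Entpd1. Mmp13 had no close neighbour, since its nearest genes Cd40, Ptgs2 and Cd69 lay at gaps of 0.692 to 0.955. Adam8 was nearest to Ptgr1 (0.393), H6pd and Panx1, and Adamts4 to Arhgef3 (0.604), Errfi1 and Ikzf1. With other scalings and pseudocounts, 6 to 18 of the 18 pairs were found again, so the names depend on the setting.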

How the data were processed

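RNA was sequenced at 5 times in mouse bone marrow-derived macrophages, 1 library per time, on the BGISEQ-500, per the labels' protocols. The authors deposited 1 table of FPKM values with 2 decimals, per the file headers. The submitters' processing notes name Bowtie2, RSEM and the build GRCm38 without versions or roles, and the annotation is not given in the sources used here. RSEM divides reads that match several gene copies by estimate, and an FPKM value is lowered when other genes take more of the library.

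Differences were taken as log2(FPKM + 1). This scale makes changes of low genes look smaller, so fold values are given as ratios of FPKM. Genes with a mean of at least 1 FPKM counted as higher or lower from 2-fold on that scale. With 1 library per time no test was run. Symbols that had been turned into dates were restored in 20 rows by gene identifier. Depth was estimated from the steps between low values of genes with 1 transcript of 400 to 2500 nt, after reducing lengths by 40 nt, searching 6 to 50 M reads. Of 150 to 174 values per library 55.9% to 64.5% came out as whole reads, with a tolerance of 0.04 reads or of the 0.005 FPKM lost in rounding, where 28.6% to 29.9% would for a fixed step by chance. The step was chosen for the best match, so this chance rate is too low. Most genes gave no whole reads, and no count test was made. Counting intervals (95%) rest on this depth.

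The members and the gene lists were chosen with earlier results of these data known. Named genes are the 10 members, the 2 list genes furthest apart in each direction at 4 h and 24 h against 0 h, the 3 nearest profiles and the neighbours in the Mmp cluster, and genes outside this rule are marked in the text. Lists cover other Mmp, Adam and Adamts genes (the last with Adamts-like genes), other inhibitors, activators and partners, and ADAM17 regulators and substrates. They also cover matrix genes, AP-1, NF-kappaB and ETS transcription factors, and markers of macrophages, neutrophils, stroma, dendritic cells and osteoclasts. Alternatives were pseudocounts of 0.1 and 5, centring on the median gene, scaling to the same FPKM sum (as TPM), removal of the trend on transcript length (GENCODE M21, which covers 96.8% of genes over the filter), no filter, and other gene sets in the ratio. Alternatives for the nearest profiles were added after the data had been seen. Promoters and gene coordinates are on GRCm38. Protein sequences were not used here. Only the 2-fold counting was tested on simulated data. All steps were run in Python 3.11.15 with pandas 2.3.3, numpy 2.4.6 and scipy 1.17.1.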

Additional observations from a re-analysis of the deposited data

How the results depend on the processing

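No paired analysis was possible because each time was 1 library, and for the same reason no library could be left out. None of the differences of the 10 genes that reached 2-fold changed sign under an alternative, and dropping the filter left every count within 1.5 times. With a pseudocount of 5, 1 member was lower at 4 h against 0 h and 1 higher at 24 h against 12 h. Counts of all genes were then 1976 lower at 4 h, 1537 lower at 8 h, 1188 lower at 12 h, and 715 higher and 841 lower at 24 h, each against 0 h. They were 839 higher for 24 h against 4 h, 199 higher and 194 lower for 8 h against 4 h, 75 and 51 for 12 h against 8 h, and 97 and 198 for 24 h against 12 h. A pseudocount of 0.1 gave 2 members lower at 12 h against 8 h, with 594 genes higher and 140 lower, 1019 higher at 8 h against 4 h and 634 higher at 24 h against 12 h. Centring gave 0 members lower at 4 h (1903 genes higher, 1598 lower), 5 higher at 8 h (1519 genes lower) and 1 lower at 12 h (1348 genes lower), each against 0 h. It gave 876 genes higher and 1572 lower at 24 h against 4 h, 138 and 152 at 12 h against 8 h, and 1 member higher and 3 lower at 24 h against 12 h, with 137 and 598 genes. Scaling to the same FPKM sum gave 1 member lower at 4 h against 0 h, 600 genes lower at 8 h against 4 h and 384 higher at 12 h against 8 h. With the length trend removed, 5 members were higher and 0 lower at 4 h (1884 and 1136 genes), 5 higher at 8 h (1238 genes lower) and 1 lower at 12 h (984 genes lower), each against 0 h. Later pairs then gave 915 genes higher and 1435 lower at 24 h against 4 h, 327 higher at 8 h against 4 h, 151 higher at 12 h against 8 h, and 3 members lower with 151 genes higher and 526 lower at 24 h against 12 h. The cause of these shifts was not tested.

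The protease to inhibitor ratio without Mmp12 was 0.191, 24.6, 22.1 and 6.28 at 0, 4, 12 and 24 h. Without Mmp13 it was 5.44, 10.6, 9.68 and 5.43 at 4, 8, 12 and 24 h. With all 17 listed Mmp genes over Timp1, Timp2 and Timp3 it was 1.07, 24.4 and 35.3 at 0, 4 and 8 h. Of the 18 nearest pairs 11 were found again with a pseudocount of 0.1, 8 with 5 and 6 with the length trend removed. Depth limits Mmp9 (50 to 85 estimated reads) and Adamts4 outside 4 h (1 to 49 reads).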
